A study of Mus musculus with 4 samples.

Results

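Antigen presentation was followed in 10 genes. It is the display of peptides on major histocompatibility complex (MHC) molecules. The genes were measured by 31 of the 45101 probe sets on 4 mouse arrays. They are B2m, H2-K1, H2-D1, H2-T23, Tap1, Tap2, Tapbp, Psmb8, Psmb9 and Cd74. Probe sets were taken by gene symbol, including 5 that list several H2 genes. The genes themselves were chosen by a list drawn up with the differences between these arrays already known, so every difference below is a description and none was tested. The arrays held fl/fl day 6, fl/fl day 4, wt/wt day 6 and wt/wt day 4 organoids, where fl/fl and wt/wt refer to Tacc3, the gene of a mitotic spindle protein. Organoids are cultures of intestinal epithelium in a gel. All 4 had received 4-hydroxytamoxifen (4OHT) for 24 hours, given to recombine Apc and Tacc3. The design text applies this to both days, but in the descriptions of the samples day 4 stands for normal and day 6 for Apc-deficient organoids, so the state of Apc at each day is not settled. No source used here gives the mouse strain, the animals behind each culture, the recombinase or its promoter. With 1 array per group, no value has a replicate error.

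Class I molecules consist of a polymorphic heavy chain, encoded in mice by H2-K1, H2-D1 and related H2 genes, and the invariant light chain beta-2 microglobulin, encoded by B2m. Their peptides are cut by proteasomes, in which Psmb8 and Psmb9 can replace constitutive catalytic subunits, are pumped into the endoplasmic reticulum by the Tap1 and Tap2 transporter, and are loaded with the help of tapasin, encoded by Tapbp. Cd74 is the invariant chain that accompanies class II molecules. In the intestinal epithelium class I is carried by all cells, while class II rises with interferon gamma.

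On these arrays the genes did not all differ alike between the days. The light chain and the brightest heavy chain probe sets were higher at day 6 than at day 4 in both genotypes. In bulk organoids, more cells of a type and more RNA per cell cannot be told apart. The transporter, the immunoproteasome subunit above the filter and the invariant chain differed by less than 2-fold between the days as deposited. Their probe sets above the filter read between 17.4 and 66.2, where the scale described below understates differences. Role and signal level can thus not be told apart. By its brighter probe set, Tapbp was near 2-fold higher at day 6 in wt/wt organoids, and its days differed little in fl/fl organoids. By its representing probe set, as deposited, no gene differed 2-fold between fl/fl and wt/wt organoids at either day.

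The upstream sequences of the genes that were higher at day 6 are shown because 3 of them share an arrangement of motifs, with Tap1, which was not higher, for comparison. They come from RefSeq (GRCm38.p6) and run 5′ to 3′ over the 250 bases before the annotated start. Capitals mark the 5 motifs searched on both strands: the interferon regulatory factor (IRF) element GAAANNGAA, the gamma-activated site (GAS) TTCNNNGAA, the Y box CCAAT, which reads ATTGG on the other strand, the CRE core TGACG and the NF-kappaB site GGGNNTTCC. The B2m sequence is chr2:122147437-122147686 on the plus strand, H2-K1 chr17:34000348-34000597 on the minus strand, H2-D1 chr17:35262844-35263093 on the plus strand, H2-T23 chr17:36032702-36032951 on the minus strand and Tap1 chr17:34187306-34187555 on the plus strand.
B2m: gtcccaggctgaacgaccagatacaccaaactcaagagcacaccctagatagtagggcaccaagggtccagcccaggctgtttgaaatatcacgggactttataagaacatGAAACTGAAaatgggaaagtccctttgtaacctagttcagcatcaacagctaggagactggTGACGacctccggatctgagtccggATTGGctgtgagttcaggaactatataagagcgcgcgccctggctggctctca
H2-K1: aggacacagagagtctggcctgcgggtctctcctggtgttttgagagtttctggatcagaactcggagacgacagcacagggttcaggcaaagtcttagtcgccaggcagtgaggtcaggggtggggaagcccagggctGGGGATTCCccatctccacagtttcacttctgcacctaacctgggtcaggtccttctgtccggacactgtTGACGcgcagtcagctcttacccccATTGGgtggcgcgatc
H2-D1: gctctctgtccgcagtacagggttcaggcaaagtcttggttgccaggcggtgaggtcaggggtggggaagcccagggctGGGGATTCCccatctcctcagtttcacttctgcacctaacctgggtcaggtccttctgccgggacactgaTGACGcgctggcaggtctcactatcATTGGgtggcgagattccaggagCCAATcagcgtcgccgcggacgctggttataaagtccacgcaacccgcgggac
H2-T23: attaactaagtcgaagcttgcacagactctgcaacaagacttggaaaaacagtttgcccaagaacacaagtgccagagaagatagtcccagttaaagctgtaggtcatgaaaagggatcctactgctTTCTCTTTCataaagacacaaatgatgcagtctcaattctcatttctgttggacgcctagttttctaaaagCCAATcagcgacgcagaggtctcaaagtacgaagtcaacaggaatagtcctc
Tap1: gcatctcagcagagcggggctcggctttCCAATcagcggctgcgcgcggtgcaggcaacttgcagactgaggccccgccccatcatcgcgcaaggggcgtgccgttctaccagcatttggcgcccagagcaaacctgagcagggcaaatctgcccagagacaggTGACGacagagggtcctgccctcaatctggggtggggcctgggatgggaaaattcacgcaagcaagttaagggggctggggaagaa

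In B2m, H2-K1 and H2-D1 an inverted Y box began 25 bases after the first base of a CRE core. The other 5 genes with a window searched, H2-T23, Tap1, Tapbp, Psmb8 and Psmb9, lacked this arrangement within the 300 bases searched, which include 50 after the start. Among all 32851 promoter windows of the table, 31 (0.0944%), from 27 genes, held it. Of these genes, 21 were measured above the filter described below, and those 2-fold higher at day 6 in both genotypes were B2m, H2-D1 and H2-K1, beside 9.36% of all genes. The spacing was noticed in these same 3 genes and then counted, so nothing is read from that count. Another class I gene among the 21 was H2-M3, picked out after its values were seen. Its day differences were 0.49 in fl/fl and -0.52 in wt/wt organoids. The CRE core and the Y box belong to the conserved upstream module of MHC genes, the first within its X region, which is bound by RFX, CREB and NF-Y factors and read by the coactivators NLRC5 (class I) and CIITA (class II).

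Single motifs were more common. The Y box lay in 7 of the 8 members' windows and in 37.4% of all windows, the CRE core in 5 and 20.8%. The NF-kappaB letters lay in H2-K1 and H2-D1 and in 5.82% of all windows. The IRF element lay in B2m, 139 bases before the start, and in H2-T23, against 8.56% of all windows, and the GAS letters in Psmb8, against 8.30%. Tap1 and Psmb9 start 226 bases apart on opposite strands of chromosome 17, so their windows share 275 bases. The Y box and the CRE core of Tap1 are the same sites as those of Psmb9, read from the other strand. The counts above include these shared sites for both genes. Within a window, matches of different motifs do not overlap. A match of letters is not a bound site.

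Intensities are given as deposited. Differences are on the scale log2(intensity + 16), which understates those of dim genes, and a difference of at least 1 on it is called 2-fold. Each gene is represented by its brightest probe set that lists 1 gene. The filter kept genes whose mean reached that of the median probe set (5.04 on the log2 scale, an intensity of 16.9), which left 11399 of 18193 genes. Of the 31 probe sets, 18 passed the filter, and the 13 below it read between 3.69 and 21.3 on all arrays. Of the 10 genes, 8 were represented above the filter, H2-T23 had no probe set that lists it alone, and Psmb8 was below. Levels of different probe sets cannot be compared with each other.

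**Figure D1:**
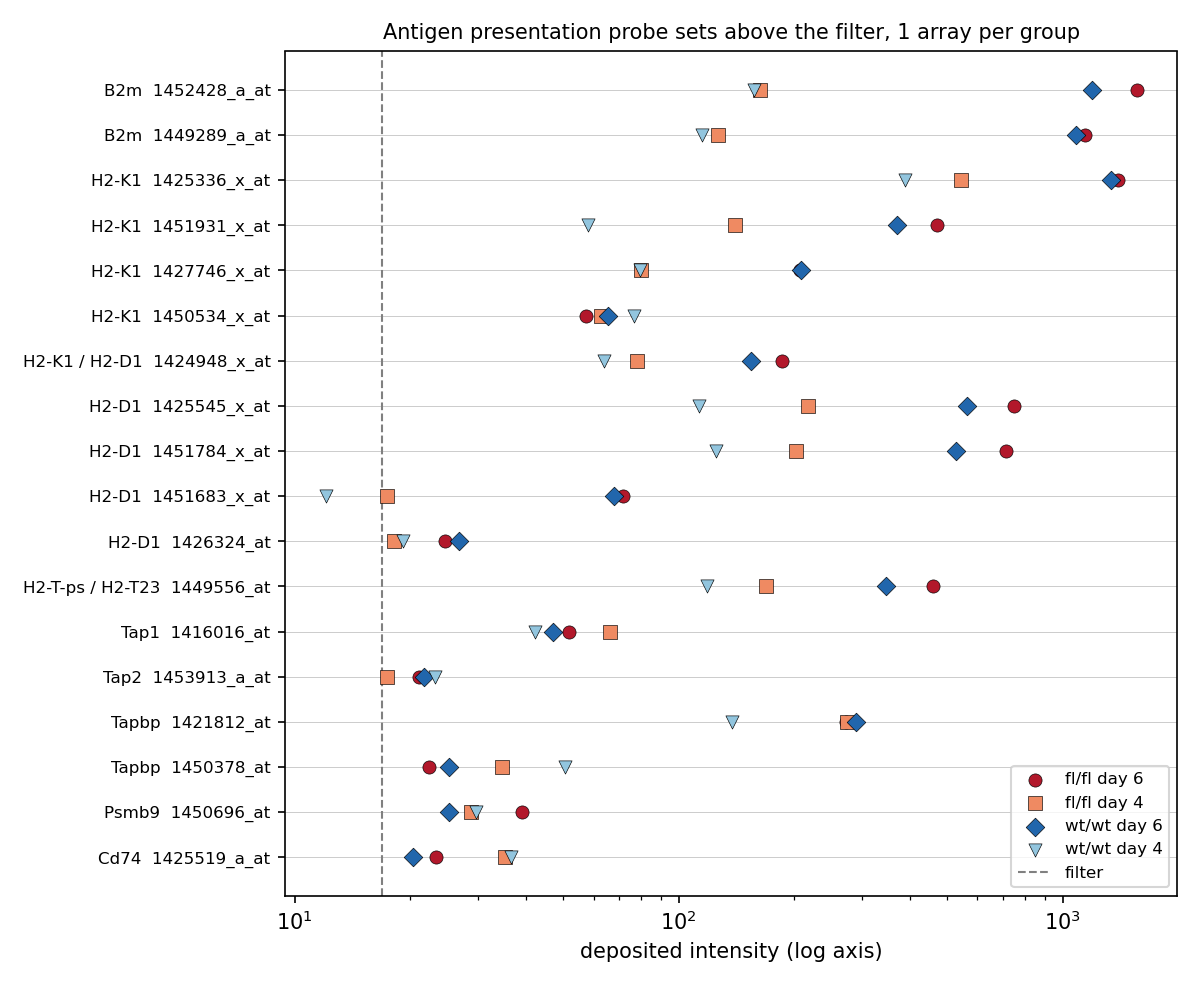
Deposited intensity (log axis) of the 18 antigen presentation probe sets above the filter on each of the 4 arrays, 1 point per array; the dashed line is the filter of 16.9. Both B2m probe sets and 8 of the 10 H2 probe sets read more at day 6 (circles, diamonds) than at day 4 (squares, triangles) by at least 2-fold on the log2(intensity + 16) scale in both genotypes, whereas Tap1, Tap2, Psmb9 and Cd74 stay between 17.4 and 66.2. Over all genes above the filter, 9.36% were 2-fold higher at day 6 in both genotypes.

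The arrays differed in ways that go with the day. Array medians lay between 15.4 and 17.7. For Actb, the intensity at the 5′ end over that at the 3′ end, which is low where RNA is degraded or the labelled product short, was 0.261 and 0.180 at day 6 in fl/fl and wt/wt organoids, against 0.0627 and 0.0610 at day 4, and for Gapdh it was 0.524 and 0.411 against 0.142 and 0.208. The bacterial hybridization controls had median intensities of 1139 and 1329 at day 6, against 2804 and 4098 at day 4. Within a day these values also differed between fl/fl and wt/wt organoids, as in the controls and the Gapdh ratio at day 4. The part of these shifts in the day and genotype differences was not tested. Tacc3 read 49.7 in fl/fl against 167 in wt/wt organoids at day 6, and 59.8 against 184 at day 4, log2 differences of -1.47 and -1.40. Apc read 149.6 and 53.5 at day 6 and day 4 in fl/fl organoids, and 122 and 27.9 in wt/wt organoids. Of the housekeeping genes, Hprt had day differences of 1.5 in fl/fl and 1.06 in wt/wt organoids, and Gusb of 0.89 and 1.86, with a genotype difference of 1.28 at day 4.

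B2m had the largest day difference of the 10 genes. Its brightest probe set, 1452428_a_at, read 1561 at day 6 and 163 at day 4 in fl/fl organoids, and 1195 at day 6 and 157 at day 4 in wt/wt organoids. Both day 6 arrays lay far above both day 4 arrays, 9.60-fold in fl/fl and 7.61-fold in wt/wt organoids by ratio of intensities. The second probe set, 1449289_a_at, read 1142 and 126 at day 6 and day 4 in fl/fl organoids and 1081 and 115 in wt/wt organoids, ratios of 9.05 and 9.42. On the log2 scale the differences of the brightest probe set were 3.14 and 2.81, and those of the second 3.03 and 3.07. Among all 11399 genes, 16 had a larger day difference in fl/fl and 37 in wt/wt organoids.

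The classical heavy chains H2-K1 and H2-D1, which present peptides to CD8 T cells, were also higher at day 6, by smaller factors. H2-K1 (1425336_x_at) read 1397 and 543 at day 6 and day 4 in fl/fl organoids, and 1333 and 388 in wt/wt organoids. Its differences were 1.34 in fl/fl and 1.74 in wt/wt organoids. H2-D1 (1425545_x_at) read 745 and 217 at day 6 and day 4 in fl/fl organoids, and 563 and 113 in wt/wt organoids. Its differences were 1.71 and 2.17. In each genotype the day 6 array read more than both day 4 arrays for both genes.

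Heavy chain probe sets did not all move alike. Class I genes are close in sequence and differ between mouse strains, and 12 of the 18 H2 probe sets are of the x_at kind, which can bind several transcripts, as were 8 of the 10 above the filter. Of those 10, 8 were 2-fold higher at day 6 in fl/fl and 8 in wt/wt organoids. Over all genes above the filter, by 1 probe set each, the shares were 12.2% and 18.3%. Since x_at probe sets can bind the same transcripts, the 10 are not separate measurements. Their median difference was 1.35 in fl/fl and 1.51 in wt/wt organoids, with ranges of -0.10 to 1.75 and -0.18 to 2.38. After quantile normalization 6 of the 10 passed in fl/fl and 5 in wt/wt organoids. H2-K1 probe set 1451931_x_at read 471 and 140.1 at day 6 and day 4 in fl/fl organoids, and 369.8 and 58.1 in wt/wt organoids. Probe set 1427746_x_at read 207 and 79.8 at day 6 and day 4 in fl/fl organoids, and 208 and 79.2 in wt/wt organoids. By contrast 1450534_x_at, also assigned to H2-K1, read 57.3 and 62.6 at day 6 and day 4 in fl/fl organoids, and 65.5 and 76.6 in wt/wt organoids, so its day 6 values were the lower ones in each genotype. Its differences were positive, 0.73 and 0.67, when scaled on the hybridization controls.

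For H2-D1, 1451784_x_at read 714 and 202 at day 6 and day 4 in fl/fl organoids and 528 and 125 in wt/wt organoids. The dimmer 1451683_x_at read 71.5 and 17.4 at day 6 and day 4 in fl/fl organoids, and 68.0 and 12 in wt/wt organoids. Its day 4 values lay close to or below the filter intensity of 16.9, so its day 6 values carried it past the filter. Its place among the H2 probe sets counted as higher at day 6 therefore adds nothing. The H2-D1 probe set 1426324_at, the only one above the filter that is not of the x_at kind, read 24.7 and 18.2 at day 6 and day 4 in fl/fl organoids, and 26.7 and 19.2 in wt/wt organoids. Its differences were 0.25 and 0.28, close to the filter. A further 6 probe sets that list H2-D1 were below the filter. Which heavy chain gene carried the signal of an x_at probe set cannot be told from these values.

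Of the probe sets that list several genes, 2 passed the filter. Probe set 1449556_at lists H2-T23, which encodes the Qa-1 molecule that presents leader peptides of other class I chains, together with the pseudogene H2-T-ps. It read 460.3 and 168 at day 6 and day 4 in fl/fl organoids, and 346 and 118 in wt/wt organoids, with differences of 1.37 and 1.43. Probe set 1424948_x_at, which lists H2-K1 and H2-D1, read 186 and 78.0 at day 6 and day 4 in fl/fl organoids, and 154 and 63.9 in wt/wt organoids, with differences of 1.10 and 1.09. Both were thus 2-fold higher at day 6 in each genotype as deposited. After quantile normalization 1449556_at had 1.10 and 0.96, and 1424948_x_at 0.85 and 0.68. The second probe set of H2-T23, 1419658_at, was below the filter, between 7.24 and 14.4.

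The transporter probe sets above the filter were dim and differed by less than 2-fold between the days as deposited. Tap1 (1416016_at) read 51.9 and 66.2 at day 6 and day 4 in fl/fl organoids, and 47.2 and 42.3 in wt/wt organoids. Its day differences, -0.28 and 0.12, had opposite signs in the genotypes, and its highest array was fl/fl day 4. They had 1 sign after quantile normalization (-0.41 and -0.13) and when scaled on the hybridization controls (0.55 and 0.87). Tap2 (1453913_a_at) read 21.1 and 17.4 at day 6 and day 4 in fl/fl organoids, and 21.7 and 23.1 in wt/wt organoids, with differences of 0.15 and -0.05. These are close to the filter, where little room is left for a fall. The other 3 Tap1 probe sets were below the filter.

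Tapbp, the chaperone that bridges the transporter and the empty class I molecule, depended on the array. Probe set 1421812_at read 272 and 274 at day 6 and day 4 in fl/fl organoids, and 289.96 and 138 in wt/wt organoids. The wt/wt day 4 array alone was low, and the other 3 lay close together. The day difference was -0.01 in fl/fl and 0.99 in wt/wt organoids, so that the genotype difference was -0.09 at day 6 and 0.92 at day 4, a shift of -1.0 between the days. Its other probe set, 1450378_at, ran the other way and read 22.4 and 34.8 at day 6 and day 4 in fl/fl organoids, and 25.2 and 50.7 in wt/wt organoids. The 2 probe sets of this gene thus disagree as deposited. The day differences of 1450378_at were 0.26 and 0.05 when scaled on the hybridization controls.

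The immunoproteasome subunits were dim. Psmb9 (1450696_at) read 39.0 and 28.8 at day 6 and day 4 in fl/fl organoids, and 25.2 and 29.7 in wt/wt organoids, with day differences of 0.30 and -0.15. Only the fl/fl day 6 array stood above the other 3. Scaling on the hybridization controls gave 1.04 and 0.50. Psmb8 stayed below the filter, and its brighter probe set 1422962_a_at read 18.9 and 11.4 at day 6 and day 4 in fl/fl organoids, and 12.7 and 15.7 in wt/wt organoids. No direction can be read at that level.

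Cd74 (1425519_a_at), the single class II gene among the 10, read 23.4 and 35.3 at day 6 and day 4 in fl/fl organoids, and 20.4 and 36.7 in wt/wt organoids. Its differences of -0.38 and -0.53 were short of 2-fold, and both day 6 arrays lay below both day 4 arrays. Scaled on the hybridization controls, the differences turned positive, 0.29 and 0.14.

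**Figure D2:**
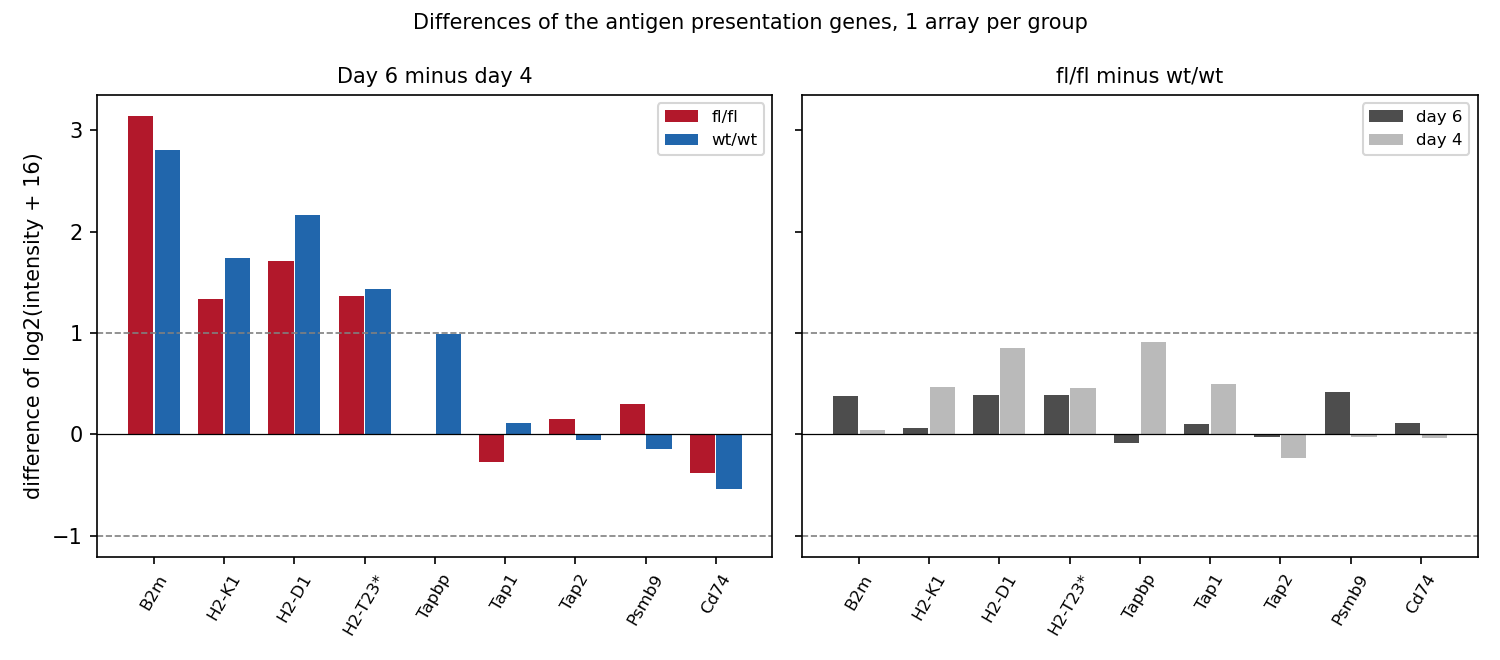
Differences of log2(intensity + 16), day 6 minus day 4 in fl/fl and wt/wt organoids (left) and fl/fl minus wt/wt at day 6 and day 4 (right), from 1 array per group; dashed lines mark 2-fold. H2-T23* is the probe set that also lists H2-T-ps. B2m, H2-K1, H2-D1 and H2-T23* exceed 2-fold between the days in both genotypes, and no bar reaches 2-fold between the genotypes.

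Counted over the 8 genes above the filter, 3 (B2m, H2-K1 and H2-D1) were 2-fold higher at day 6 in fl/fl and the same 3 in wt/wt organoids, and 0 were lower in either. Over all 11399 genes, 12.2% were 2-fold higher at day 6 in fl/fl organoids and 2.89% were lower, with 18.3% and 2.97% in wt/wt organoids. The median over the 8 genes was 0.22 in fl/fl and 0.55 in wt/wt organoids, beside 0.00 and 0.17 over all genes. These contrasts were in view when the list was drawn up, so nothing is read from the counts. After quantile normalization the all-gene counts became 928 higher and 674 lower in fl/fl organoids, against 1394 and 330 as deposited, and 1184 and 1107 in wt/wt organoids, against 2082 and 338. The all-gene medians were then -0.12 and -0.13. Scaled on the hybridization controls, they were 0.85 and 1.01, with 4879 and 5759 genes higher and 12 lower in each genotype. B2m, H2-K1 and H2-D1 were 2-fold higher in both genotypes under each of these scalings. Their differences exceeded the all-gene median each time.

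**Figure D3:**
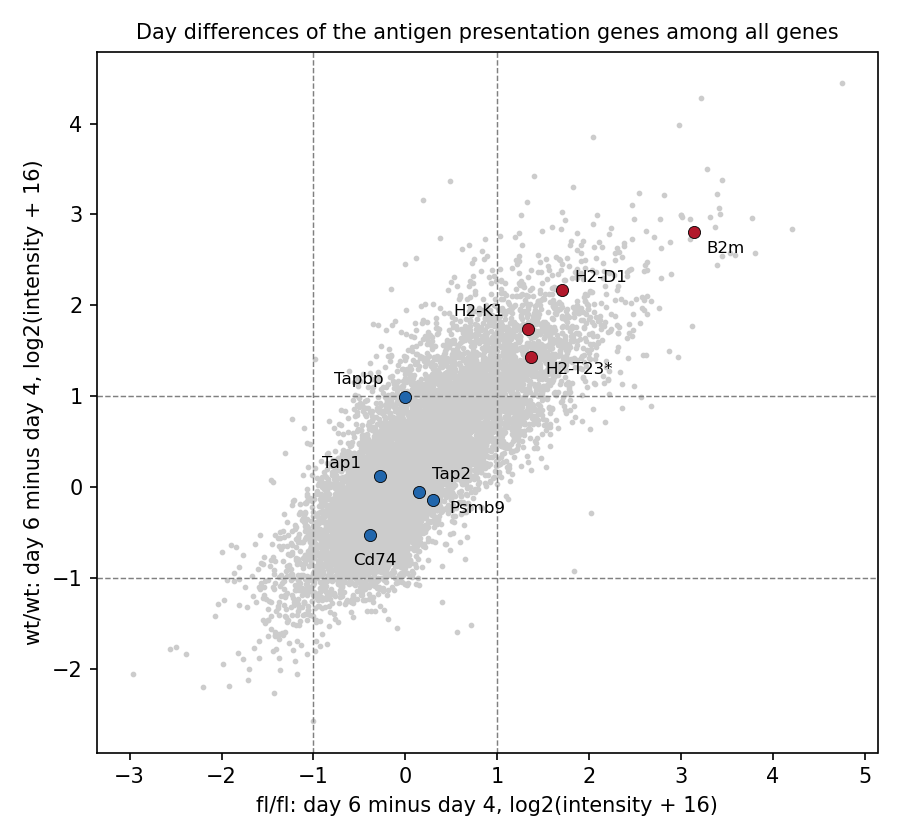
Day 6 minus day 4 on the log2(intensity + 16) scale in fl/fl (horizontal) against wt/wt (vertical) organoids for the 11399 genes above the filter (grey) and the antigen presentation genes (red where 2-fold higher in both, blue otherwise); H2-T23* is the probe set that also lists H2-T-ps, and dashed lines mark 2-fold. The genotypes share no array. B2m lies at 3.14 and 2.81, the heavy chains between 1.34 and 2.17, and Tap1, Tap2, Psmb9 and Cd74 within 0.53 of 0.

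Between genotypes, fl/fl organoids differed from wt/wt organoids by less than 2-fold for all 8 genes at both days. At day 6 the differences ran from -0.09 (Tapbp) to 0.42 (Psmb9) with a median of 0.11, beside 0.05 over all genes. At day 4 they ran from -0.23 (Tap2) to 0.92 (Tapbp) with a median of 0.26, beside 0.15 over all genes. Of all genes, 0.211% were 2-fold higher in fl/fl than in wt/wt organoids at day 6 and 0.57% were lower. At day 4 the shares were 1.38% higher and 0.105% lower. B2m differed by 0.38 at day 6 and 0.05 at day 4, H2-K1 by 0.07 and 0.47, and H2-D1 by 0.39 and 0.86. A single probe set passed 2-fold: for H2-K1, 1451931_x_at gave a genotype difference of 0.33 at day 6 and 1.08 at day 4 (0.92 at day 4 after quantile normalization). The split of the all-gene calls depended on scale. Quantile normalization gave 117 genes up and 40 down at day 4, and scaling on the hybridization controls 778 and 1, against 157 and 12 as deposited. At day 6 scaling on these controls gave 280 and 12, against 24 and 65. Under that scaling, H2-D1 and Tapbp passed 2-fold at day 4, with 1.20 and 1.27, where the all-gene median was 0.47.

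The change in the genotype difference from day 4 to day 6 was 2-fold for Tapbp alone among the 8 genes, at -1.0. Over all genes this shift was at least 2-fold upward in 0.649% and downward in 4.1%. The counts were 74 and 467 as deposited and 178 and 313 after quantile normalization.

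Other class I genes were mostly dim or without a probe set of their own. Of 26 genes listed, 13 had one and 8 passed the filter. H2-Q2, a nonclassical heavy chain gene of the Q region, was the only one 2-fold higher at day 6 as deposited, in both genotypes, with 91.9 and 16 at day 6 and day 4 in fl/fl organoids, and 86.0 and 14.1 in wt/wt organoids. Its differences were 1.75 and 1.76, and 9.36% of all genes were 2-fold higher at day 6 in both genotypes. Both day 4 values lay below the filter intensity of 16.9, so its day 6 values carried it past the filter. The median of the 8 genes was -0.04 in fl/fl and -0.21 in wt/wt organoids. Scaled on the hybridization controls, 9 genes passed the filter, their medians were 0.61 and 0.38, and 3 and 2 were 2-fold higher. Median centring gave 1 and 2.

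General chaperones of the endoplasmic reticulum that fold and load class I molecules were higher at day 6 in part. Of 9 measured, 2 were 2-fold higher in fl/fl and 5 in wt/wt organoids, beside 12.2% and 18.3% of all genes, and 0 were lower. Quantile normalization gave 2 higher in fl/fl organoids, and 3 higher and 1 lower in wt/wt organoids, and scaling on the hybridization controls 6 and 7 higher. Calnexin (Canx), which holds new heavy chains, read 1302 and 405 at day 6 and day 4 in fl/fl organoids, and 1004 and 208 in wt/wt organoids, differences of 1.65 and 2.19. The disulfide isomerase Pdia3, the partner of tapasin, read 1131 and 331 at day 6 and day 4 in fl/fl organoids, and 789 and 162 in wt/wt organoids, differences of 1.73 and 2.17. The trimming peptidase Erap1 differed between the days by 0.85 and 1.22, the glucosidase subunit Ganab by 0.48 and 1.28 and the chaperone Hspa5 by 0.68 and 1.03. Calreticulin (Calr) differed by -0.45 and 0.57, short of 2-fold, and P4hb, another disulfide isomerase, by -0.26 and 0.83. Uggt1 and Tapbpl, picked out after their values were seen, differed by -0.41 and -0.67 and by 0.30 and 0.29. Between genotypes, 0 of the 9 differed 2-fold at day 6, and 3 were 2-fold higher in fl/fl than in wt/wt organoids at day 4. Calr differed by 0.22 at day 6 and 1.24 at day 4, P4hb by 0.18 and 1.27, and Hspa5 by 0.67 and 1.01. The list's median at day 4 was 0.91, beside 0.15 over all genes. The count of 3 became 2 after quantile normalization, 4 after median centring and 5 when scaled on the hybridization controls, which also gave 1 at day 6.

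Proteasome genes outside the 10 were 2-fold higher at day 6 in 1 case in fl/fl and 2 cases in wt/wt organoids. Over all genes the shares were 12.2% and 18.3%. Of 5 further inducible or activator genes above the filter, Pomp, the assembly chaperone, differed by 1.04 between the days in fl/fl and 0.45 in wt/wt organoids, and the activator Psme4 by 0.55 and 1.16. The other 3 were short of 2-fold. Of the constitutive catalytic subunits, Psmb5, which Psmb8 replaces, differed by 0.98 and 1.02, and Psmb6 and Psmb7 were short of 2-fold. After quantile normalization 0 genes of either list passed 2-fold, where 8.13% and 10.4% of all genes were higher in fl/fl and wt/wt organoids. Scaled on the hybridization controls, 3 of 5 and 3 of 3 passed in fl/fl organoids, and 4 of 5 and 2 of 3 in wt/wt organoids. Of all genes, 42.9% and 50.7% were 2-fold higher under that scaling.

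Of the class II pathway, 15 of 17 genes had a probe set of their own and 8 passed the filter. Ctss, the protease that trims the invariant chain in antigen-presenting cells, had a day difference close to that of B2m, and read 392 and 34.7 at day 6 and day 4 in fl/fl organoids, and 365 and 32.6 in wt/wt organoids (3.01 and 2.97). Ifi30, a lysosomal thiol reductase, differed by 1.19 and 0.97. The pathway's medians were -0.19 and -0.10, and 0.46 and 0.72 when scaled on the hybridization controls. The class II chains themselves were not higher at day 6 as deposited: H2-Aa, H2-Ab1 and H2-Eb1 stayed below the filter, and H2-Ea, above it, differed by -0.39 and -0.50. These chains, and the regulators named next, were picked out after their values were seen.

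Among 17 regulators above the filter, 0 were 2-fold higher at day 6 in either genotype as deposited. Over all genes, 12.2% were in fl/fl and 18.3% in wt/wt organoids. With scaling on the hybridization controls, 9 regulators were higher in fl/fl and 11 in wt/wt organoids, where the all-gene medians were 0.85 and 1.01. Of all genes, 42.9% and 50.7% were then 2-fold higher. Ifngr2, a chain of the interferon gamma receptor, was lower in fl/fl organoids by 1.03 on the log2 scale (day difference -1.03), with -0.66 in wt/wt organoids. After median centring 0 regulators were 2-fold lower, and after quantile normalization 2 in fl/fl and 1 in wt/wt organoids. Irf1, the interferon-induced factor that binds IRF elements, read 185 and 184 at day 6 and day 4 in fl/fl organoids, and 196 and 169.6 in wt/wt organoids. Nlrc5 and Ciita were below the filter, Nlrc5 between 6.17 and 14.4 and Ciita between 11.8 and 30.2. Their mRNA levels therefore cannot be ordered here.

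Interferon-induced genes, of which 16 of 27 on the array passed the filter, had median day differences of -0.25 in fl/fl and -0.35 in wt/wt organoids, beside 0.00 and 0.17 over all genes. As deposited 0 of them were 2-fold higher at day 6, beside 12.2% of all genes in fl/fl and 18.3% in wt/wt organoids. Oas1a (-1.20 and -1.13) and Ly6e (-1.31 and -1.21) were 2-fold lower in both genotypes, where 2.89% and 2.97% of all genes were lower. Zbp1 differed by -0.32 in fl/fl and -1.09 in wt/wt organoids. Scaled on the hybridization controls, the list's medians turned positive, 0.44 and 0.42, with 1 and 2 genes 2-fold higher and 0 lower, and stayed below the all-gene medians of 0.85 and 1.01.

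**Figure D4:**
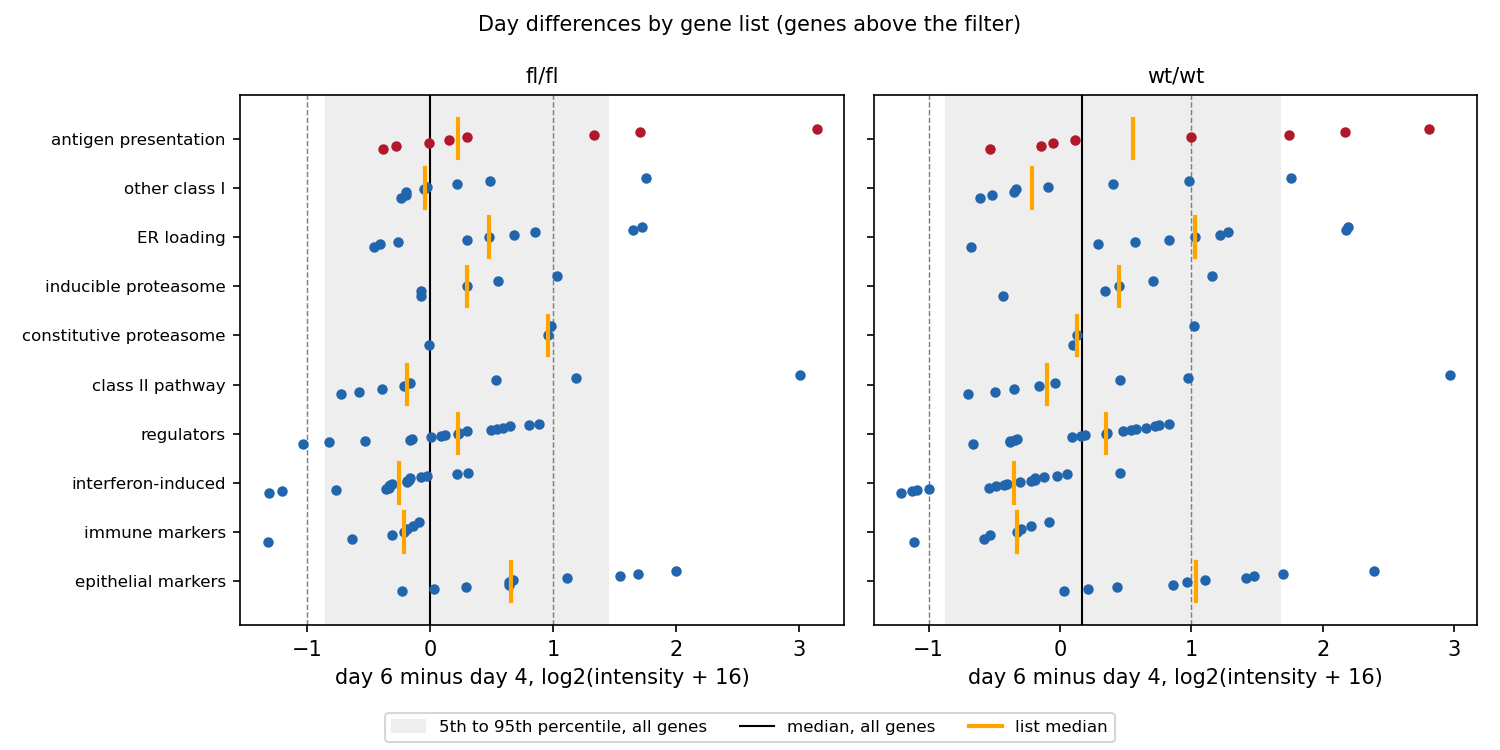
Day 6 minus day 4 on the log2(intensity + 16) scale in fl/fl (left) and wt/wt (right) organoids, 1 point per gene above the filter, by gene list; orange marks the list median, the black line the median and the grey band the 5th to 95th percentile over all 11399 genes, and dashed lines 2-fold. The antigen presentation genes spread from -0.38 to 3.14 in fl/fl and from -0.53 to 2.81 in wt/wt organoids, while the interferon-induced genes reach at most 0.31 and 0.46.

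Markers of other cells were examined because immune cells carry much of the same machinery. Without Lyz2, which resembles the Paneth cell lysozyme gene, 18 immune markers had a summed intensity of 246 at day 6 and 323 at day 4 in fl/fl organoids, and 249 and 413 in wt/wt organoids, with 6 of them above the filter. The pan-leukocyte gene Ptprc read at most 6.77, but Laptm5 reached 97.0, Cd4 68.3 and Cd8a 34.1, each at wt/wt day 4. Ptprc, Cd4 and Cd8a were picked out after their values were seen. Among immune markers above the filter, Lyz2 differed between the days by -1.32 and -0.30 and Laptm5 by -0.31 and -1.11. Of 12 mesenchymal and endothelial markers, 4 passed the filter, none 2-fold different, with Vim, Acta2 and Des at most 45.6. The 7 immune markers above the filter had negative day differences in both genotypes, with medians of -0.21 and -0.33, and scaled on the hybridization controls the medians turned positive, 0.41 and 0.35. The part of these cells in the results was not tested. Epithelial markers all passed the filter and had median day differences of 0.66 and 1.04. Of the 10, 4 were 2-fold higher in fl/fl and 5 in wt/wt organoids, beside 12.2% and 18.3% of all genes. They were Epcam (1.69 and 2.39), Cdh1 (1.12 and 1.48), Cldn7 (1.55 and 1.70) and Krt20 (2.0 and 1.42), and Vil1 in wt/wt organoids (0.64 and 1.10). The others, picked out after their values were seen, were short of 2-fold in both genotypes. Krt8 differed by 0.04 and 0.21, Krt18 by -0.23 and 0.03, Krt19 by 0.64 and 0.86, Cdx2 by 0.30 and 0.43, and Lgals4 by 0.68 and 0.97. Quantile normalization left 3 and 3 of the 10 epithelial markers 2-fold higher, and scaling on the hybridization controls gave 9 and 10.

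By the smallest distance over the 4 arrays, the genes nearest to the median profile of the 8 genes were Plpbp, Slc7a5, Nob1, Ppp3cb and Stmn1, at 0.0181 to 0.0532 on the log2 scale. That profile lies between the genes that were higher at day 6 and those that were not, and B2m itself lay farther from it than each of these 5, at 2.56.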

How the data were processed

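The authors deposited 1 linear intensity for each of 45101 probe sets on each of 4 Affymetrix arrays. Per the labels' protocols, biotinylated cRNA was made from 100 ng of total RNA using a kit for 3′ in vitro transcription. How the deposited intensities were background-corrected and normalized, and with which software, is not given in the sources used here. Values were used without further normalization as log2(intensity + 16). Symbols came from the platform's gene table (1 symbol for 34958 probe sets, several for 932, none for 9211), updated through the Entrez ID with RefSeq's GRCm38.p6 table for 34754. Promoter windows are RefSeq's. Differences were computed with Python 3.11.15 and pandas 2.3.3, and the calculation was tested on simulated intensities. With 1 array per group no p-value was computed, and the number of arrays limits the precision.

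The genes, lists, motifs and alternatives were chosen with earlier results of these data known. Outside the 10 genes, genes were named where they were above the filter and 2-fold different in any of the 4 comparisons within a day or genotype, or else as the 3 brightest of a list. The genes of the floxed alleles and the 5 genes nearest to the median profile were also named. Genes outside these rules are marked as picked out after their values were seen. Alternatives were another pseudocount, median centring, quantile normalization, the mean of probe sets, no x_at or s_at probe sets, probe sets of several genes, and other filters. Scaling on the hybridization controls was chosen after seeing the data.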

Additional observations from a re-analysis of the deposited data

Results flagged for a closer look

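For 5 genes the difference had opposite signs in the strata compared, with 1 array each; whether the strata differ was not tested. The genotype difference at day 6 minus that at day 4 was -1.0 for Tapbp (genotype differences of -0.09 at day 6 and 0.92 at day 4). It was 0.44 for Psmb9 (0.42 and -0.03) and 0.15 for Cd74 (0.11 and -0.04). Tap1 (-0.39) and Tap2 (0.20) had day differences of opposite sign in fl/fl and wt/wt organoids, as did Tapbp (-0.01 and 0.99) and Psmb9 (0.30 and -0.15). Scaled on the hybridization controls, none of the 5 kept opposite signs. The day differences in fl/fl and wt/wt organoids were then 0.55 and 0.87 for Tap1, 0.76 and 0.54 for Tap2, 0.97 and 1.96 for Tapbp and 1.04 and 0.50 for Psmb9. The genotype differences at day 6 and day 4 were then 0.29 and 1.27 for Tapbp, 0.75 and 0.22 for Psmb9 and 0.39 and 0.23 for Cd74. After median centring, opposite signs were seen in the day differences of Tap1 and Psmb9 and in the genotype differences of Tapbp. Tap1 also had 1 sign after quantile normalization, -0.41 and -0.13.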

How the results depend on the processing

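The counts of 2-fold genes between the days, 3 in each genotype, became 1 in fl/fl and 1 in wt/wt organoids without x_at and s_at probe sets. B2m alone then passed, since H2-K1 has no other kind of probe set that lists it alone and the H2-D1 probe set used read near the filter. Averaging the probe sets of each gene, H2-D1 fell short of 2-fold, at 0.54 and 0.65. B2m was 2-fold higher at day 6 under all 10 alternatives, with differences of 2.84 to 4.14 in fl/fl and 2.35 to 3.79 in wt/wt organoids. The median day difference was 1.34 in fl/fl and 1.74 in wt/wt organoids with the filter at a higher intensity, which left 5 genes, and 1.0 and 1.41 when scaled on the hybridization controls. That scaling also gave 2 genes that were 2-fold different between genotypes at day 4, against 0. The 1 gene with a 2-fold shift between the genotype differences, Tapbp, became 0 with pseudocount 64, after quantile normalization, with the mean of probe sets and when scaled on the hybridization controls; the cause was not tested. Another 89 recomputed medians and counts stayed within the margin set, a factor of 1.5, which is wider than each median as deposited. Without x_at and s_at probe sets the median day difference was 0.15 in fl/fl and 0.12 in wt/wt organoids, beside 0.03 and 0.20 over all genes. With the mean of probe sets it was 0.30 and 0.15, beside 0.05 and 0.17. The median genotype difference at day 4 was -0.03 without x_at and s_at probe sets, beside 0.16 over all genes. Over all genes, the 2-fold counts ranged from 856 to 4891 between the days in fl/fl organoids (1724 as reported) and from 1201 to 5771 in wt/wt organoids (2420). They ranged from 37 to 292 between genotypes at day 6 (89), from 27 to 779 at day 4 (169) and from 180 to 1101 for the shift (541). Tap2 and Psmb8 lie at the filter, where a lower level is hard to measure.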

Other observations

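The genes nearest to B2m over the 4 arrays, sought after its values were seen, were Ccl25, Slc13a1, Ctss, Muc3 and Tmem236, at distances of 0.11 to 0.28 on the log2 scale. Ccl25, a chemokine of the small intestinal epithelium, read 1117 and 117 at day 6 and day 4 in fl/fl organoids, and 792 and 106 in wt/wt organoids. Slc13a1, a sulfate transporter, had day differences of 3.0 and 2.99, and the membrane mucin Muc3 of 2.88 and 2.70. Tmem236 had 3.0 and 2.99.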
